A study of Arachis hypogaea with 30 samples.

Results

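The genes described here are the stilbene synthase genes of cultivated peanut (Arachis hypogaea). They are every gene whose molecular function annotation in the deposited table holds the text for trihydroxystilbene synthase activity, and they number 29 of the 82955 genes in the table. An expression level of at least 1 FPKM (fragments per kilobase of exon, scaled to the library's total) in at least 3 of the 30 libraries was reached by 26 of the 29 genes, and these were tested. Poly(A) RNA was sequenced from whole hydroponic seedlings at the 3-leaf stage of the cultivars HY33, described by its submitters as salt tolerant, and HY9115, described as salt sensitive. Each cultivar was sampled in water at 0 h and after 3, 12, 24 and 48 h in 100 mM NaCl, with 3 replicate libraries in each of the 10 groups. The water group of a cultivar is the reference for all its salt times. Because water was sampled at 0 h alone, salt, elapsed time and time of day cannot be told apart.

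Stilbene synthase is a type III polyketide synthase that joins p-coumaroyl-CoA with malonyl-CoA to make resveratrol. Resveratrol is a phytoalexin of peanut, a small antimicrobial compound that accumulates after infection, wounding or ultraviolet light. Chalcone synthase uses the same substrates but folds the chain differently and opens the flavonoid pathway, so the enzymes stand at a branch point. The substrates come from phenylalanine ammonia-lyase, cinnamate 4-hydroxylase and 4-coumarate-CoA ligase on the phenylpropanoid side and from acetyl-CoA carboxylase on the malonyl-CoA side.

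Library totals ranged from 13072324 to 18788677 counts. Within groups, log-scale correlations between libraries across genes were 0.981 to 0.989. The titles call the 3 libraries of a group biological replicates; whether each came from 1 plant or from pooled plants is not stated. In whole seedlings, a change in the share of a cell type and a change in RNA per cell cannot be told apart. The stilbene synthase genes are copies of one another, and neither the treatment of reads shared by copies nor the use of strand is given in the sources used here, so the split of counts among copies is uncertain. At 0 h, running medians of 31 neighbouring genes differed between the cultivars by more than 0.5 on the log2 scale in stretches of 10 chromosomes, but at the stilbene synthase genes they lay between -0.2 and 0.05. At these genes the medians lay between -0.39 and 0.05 at 3 h and between -0.15 and 0.06 at 12 h. The ranges were -0.22 to 0.18 at 24 h and -0.3 to 0.31 at 48 h.

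Of the 29 genes 25 lay on chromosomes 4 and 14. With neighbouring starts at most 200 kb apart taken as a cluster, 18 genes formed an array on chromosome 14, from 12339400 to 13353997, and 15 of these 18 lay on the plus strand. Chromosome 4 held a cluster of 4 genes, Ah04g096500 to Ah04g097200, from 10843367 to 11097789, and a cluster of 3 genes, Ah04g099000 to Ah04g099300, from 11437162 to 11464890. A pair on chromosome 6, Ah06g394500 and Ah06g394600, lay between 111636969 and 111641849. Ah01g026000 on chromosome 1 (3140593 to 3142414) and Ah11g081400 on chromosome 11 (10139872 to 10141711) stood alone. The genome build of these coordinates is not given in the sources used here. The chromosome 14 array depends on the distance chosen, because its widest internal gap, before Ah14g109700, is 199733 bases. A limit of 50 kb gave 6 clusters and 13 single genes, and a limit of 1000 kb gave 3 clusters and 2 single genes. Of the 29 genes 28 also carried the KEGG number of chalcone synthase, K00660, and Ah14g111900 carried none.

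Outside the array every copy was detected well enough to be tested. All 11 genes on chromosomes 1, 4, 6 and 11 were tested, against 15 of the 18 in the array. Across the 30 libraries 19 genes were at 1 FPKM or more in every library and 5 in 25 to 29 libraries. Ah14g113800 reached that level in 17 libraries and Ah14g108700 in 3. The genes below the filter were Ah14g110900, at 1 FPKM or more in 2 libraries, Ah14g111000, in 1 library, and Ah14g111900, in none. The 8 genes with the highest mean FPKM over all libraries came from every location: Ah11g081400, Ah01g026000, Ah04g097200, Ah14g112600, Ah06g394600, Ah04g099200, Ah14g108000 and Ah06g394500. The FPKM of the ninth, Ah14g109700, rests on a gene model with 223 exonic bases, against 684 to 2442 bases for the other genes.

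Expression of stilbene synthase genes was higher in salt than in water at every time and in both cultivars. Together the 29 genes held 0.0221% ± 0.00256 (SD, n = 3) of all counts in HY33 in water. That share was 0.158% ± 0.00343 at 3 h, 0.170% ± 0.0271 at 12 h, 0.248% ± 0.020 at 24 h and 0.515% ± 0.0327 at 48 h. The 48 h mean was 23.3 times that in water. In HY9115 the share was 0.0229% ± 0.00188 in water, 0.284% ± 0.0381 at 3 h, 0.264% ± 0.0318 at 12 h, 0.235% ± 0.0350 at 24 h and 0.517% ± 0.0238 at 48 h, the last 22.6 times the water level. The libraries of the cultivars overlapped in water, at 24 h and at 48 h. At 3 h the HY33 libraries (0.155, 0.162 and 0.157%) all lay below the HY9115 libraries (0.328, 0.259 and 0.264%), and the same held at 12 h (0.142, 0.171 and 0.196% against 0.233, 0.263 and 0.296%). No test was run on the sum, since it is a score over chosen genes.

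**Figure D1:**
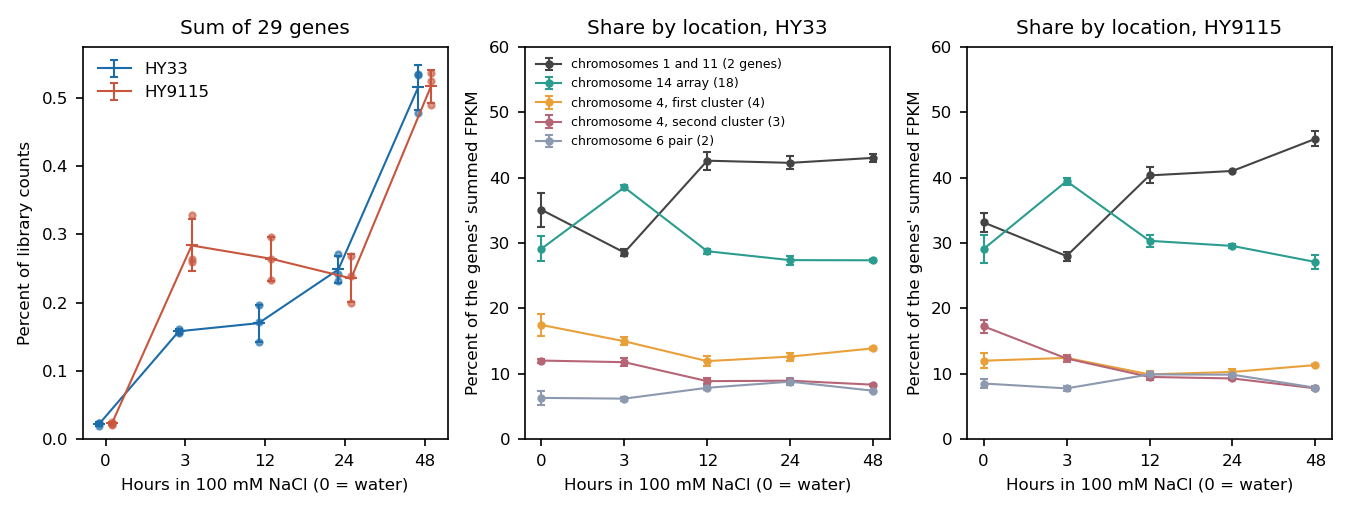
The left panel plots the percent of library counts held by the 29 stilbene synthase genes against hours in 100 mM NaCl (0 is water), with a point per library and the mean ± SD (n = 3). The other panels give the percent of the genes' summed FPKM by location (mean ± SD, n = 3), where the chromosome 14 array is at its highest at 3 h (38.5% in HY33, 39.5% in HY9115) and the genes on chromosomes 1 and 11 hold 43.0 and 46.0% at 48 h.

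The words rose and fell are kept for a log2 change of at least 1 with an adjusted p under 0.05, by edgeR's quasi-likelihood test with Benjamini-Hochberg adjustment over all 42311 tested genes. Of the 26 tested stilbene synthase genes, 25 rose at 3, 12 and 24 h and 26 at 48 h in HY33. Ah14g108700, the gene that made 26 at 48 h, was tested only because of its salt libraries, so its calls carry no weight here. The same limit holds for Ah14g108400 and Ah14g109900, which are among the 25 in these counts and in the comparison of single libraries below, and which enter the medians. Among all tested genes 6.61% rose at 3 h, 11% at 12 h, 10.4% at 24 h and 14.3% at 48 h in that cultivar. In HY9115 26 rose at 3 h, 25 at 12 h, 25 at 24 h and 26 at 48 h, against 8.27, 11.4, 9.2 and 14.5% of all tested genes. There, too, Ah14g108700 made the difference between 25 and 26. With the filter set on the water libraries alone (1 FPKM in at least 3 of 6), an alternative chosen after the values were seen, 23 of the 29 genes were tested and all 23 rose in each of the 8 comparisons; Ah14g108400, Ah14g108700 and Ah14g109900 did not reach that level in water. Genes that fell made up 7.45, 12.9, 13.4 and 20.1% of all tested genes in HY33 and 6.43, 12.4, 10.5 and 21.3% in HY9115. Of the stilbene synthase genes none fell in edgeR's test, 0 had an unadjusted p under 0.05 in the lower direction, and DESeq2 called 25 higher and 0 lower in each of the 8 comparisons. The median log2 change of the 26 genes was 3.01, 3.03, 3.73 and 5.01 at the successive times in HY33 and 3.84, 3.73, 3.51 and 4.90 in HY9115, while the median of all tested genes lay between -0.03 and 0.03. The times of a cultivar share its water libraries, so these counts are not independent of one another. In 25 of the 26 genes, all 12 salt libraries lay above all 3 water libraries in each cultivar, and the exception in both was Ah14g108700. Of all 42311 tested genes, 8.49% in HY33 and 11.4% in HY9115 had salt libraries that all lay above the water libraries.

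**Figure D2:**
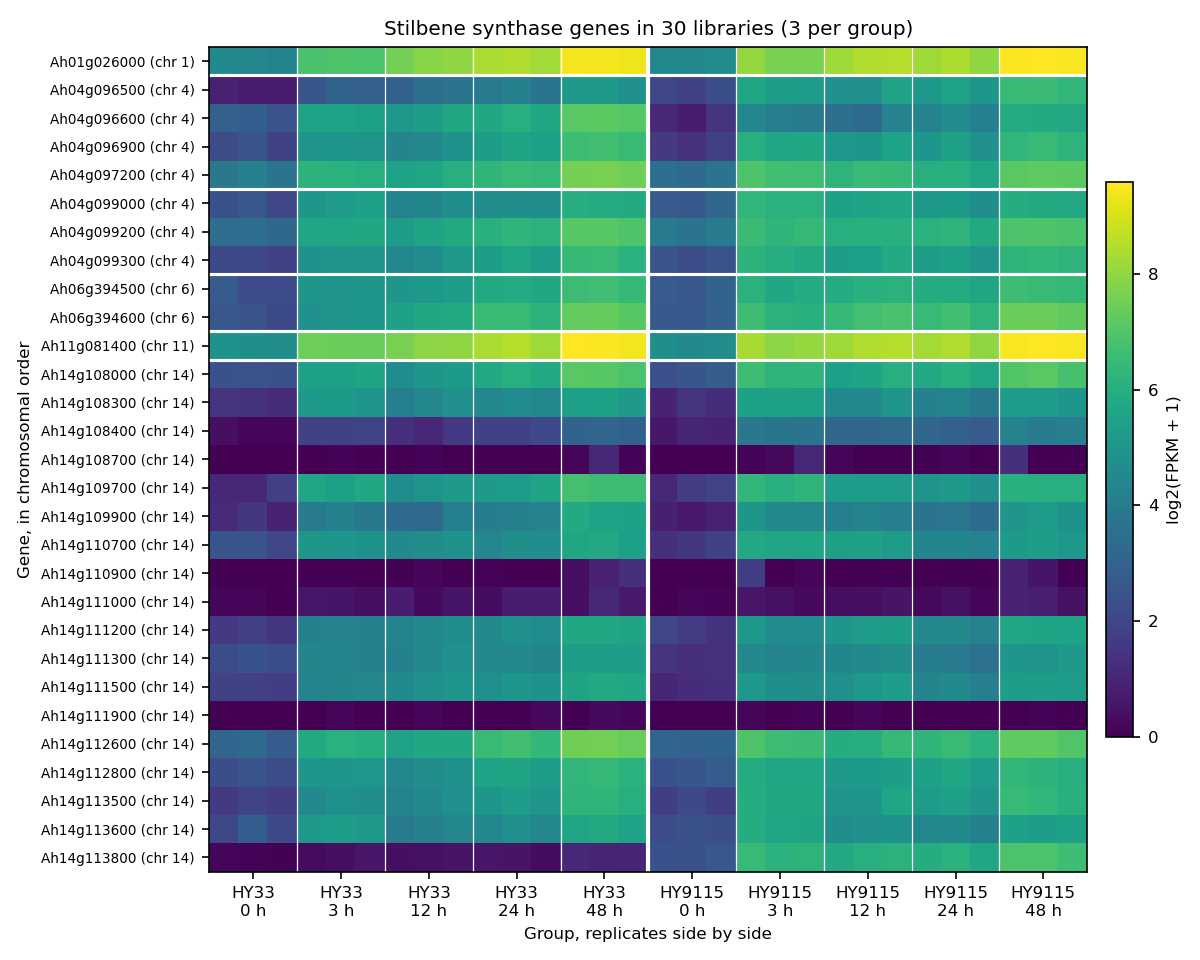
Each row is one of the 29 stilbene synthase genes in chromosomal order and each column 1 of the 30 libraries, coloured by log2(FPKM + 1), with replicates side by side and white lines between groups and locations. Nearly every row is darker in water than in salt, the rows for Ah01g026000 and Ah11g081400 are the brightest, and Ah14g113800 is dark in HY33 and bright in HY9115.

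The most abundant gene was Ah11g081400 on chromosome 11. Its FPKM in the 3 HY33 libraries of each group was 29.7, 26.8 and 25.03 in water, 175, 171 and 167 at 3 h, 198, 244 and 257 at 12 h, 332, 369.6 and 302 at 24 h and 765, 746 and 680.3 at 48 h. The HY9115 libraries had 26.3, 22.6 and 25.2 in water, 322, 245 and 268 at 3 h, 296, 348 and 369 at 12 h, 313, 349 and 257 at 24 h and 729, 766 and 729 at 48 h. Every salt library lay well above every water library, and in both cultivars the 48 h libraries were the highest with no overlap with any other time. The log2 change from water to 48 h was 5.13 ± 0.14 (SE; adjusted p = 1.7e-25) in HY33 and 5.17 ± 0.14 (adjusted p = 1.3e-25) in HY9115. Among all 82955 genes it moved from rank 4440 by FPKM in HY33 in water to rank 72 at 48 h.

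Its single counterpart on chromosome 1, Ah01g026000, followed the same course. FPKM in HY33 was 22.99, 20.9 and 18.9 in water, 114, 122 and 116 at 3 h, 191, 234 and 256 at 12 h, 333, 350.1 and 310.2 at 24 h and 707, 694 and 645 at 48 h. In HY9115 the values were 21.1, 21.3 and 23.5 in water, 271, 203 and 203 at 3 h, 296, 353 and 366 at 12 h, 302, 341 and 255 at 24 h and 752, 773 and 728 at 48 h. In HY33 the groups did not overlap and each time lay above the one before, whereas in HY9115 the 12 and 24 h libraries overlapped. The log2 change from water to 48 h was 5.40 ± 0.14 in HY33 and 5.36 ± 0.14 in HY9115 (adjusted p = 7.8e-26 for each). At 48 h in HY9115 it ranked 60 and Ah11g081400 ranked 61 among all genes by FPKM. No stilbene synthase gene was among the 1000 most abundant genes in water in either cultivar, and 8 were at 48 h in each.

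The leading gene of the chromosome 4 clusters was Ah04g097200. Its FPKM in HY33 was 12.8, 17 and 12.01 in water, 72.2, 69.5 and 64.8 at 3 h, 46.5, 50.3 and 65.9 at 12 h, 76.8, 90.3 and 83.4 at 24 h and 193, 199 and 178 at 48 h. Levels in HY9115 were 10.2, 9.18 and 12.1 in water, 124, 102 and 99.2 at 3 h, 74.2, 87.7 and 84.2 at 12 h, 65.8, 66.4 and 49.1 at 24 h and 139, 148 and 143 at 48 h. Here the early salt libraries were higher in HY9115 than in HY33, and the 48 h libraries were higher in HY33, with no overlap in either case. From water to 48 h it rose by 4.14 ± 0.15 on the log2 scale in HY33 and 4.03 ± 0.15 in HY9115. Ah04g099200, in the second cluster, had FPKM values in HY33 of 9.81, 9.76 and 8.20 in water, 50.4, 49.99 and 52.7 at 3 h, 38.6, 47.9 and 56.1 at 12 h, 67.7, 77.1 and 71.1 at 24 h and 137, 138 and 122 at 48 h. Its values in HY9115 were 14.6, 12.01 and 14.2 in water, 91.8, 76.9 and 83.3 at 3 h, 65.3, 67.6 and 65.7 at 12 h, 68.5, 74.9 and 56.6 at 24 h and 121, 122.9 and 114 at 48 h. It had the smallest rise of the 26 genes in HY9115 at 3, 12, 24 and 48 h, with 3.39 ± 0.12 at 48 h (adjusted p = 2.8e-22, edgeR).

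On chromosome 6 the genes of the pair differed in the size of their rise. Ah06g394600 had FPKM values in HY33 of 5.12, 4.45 and 3.45 in water, 27.8, 31.2 and 33.2 at 3 h, 43.6, 50.9 and 55.6 at 12 h, 86.6, 89.5 and 71.8 at 24 h and 155, 158 and 136 at 48 h. The HY9115 values were 5.66, 5.30 and 7.20 in water, 98.03, 71.4 and 67.96 at 3 h, 82.8, 104 and 114 at 12 h, 89.03, 102 and 75.5 at 24 h and 173, 173 and 151 at 48 h. Its level at 3 h was lower in all HY33 libraries than in all HY9115 libraries, and the cultivars overlapped at 24 h. For Ah06g394500, FPKM in HY33 was 5.72, 3.61 and 3.69 in water, 32.9, 30.1 and 32.8 at 3 h, 31.2, 33.5 and 39.1 at 12 h, 56.5, 58.9 and 51.6 at 24 h and 95.2, 98.7 and 85.9 at 48 h. HY9115 had 5.68, 5.11 and 7.21 in water, 70.6, 52.8 and 58.9 at 3 h, 59.01, 67.5 and 70.5 at 12 h, 59.9, 59.5 and 49.3 at 24 h and 97.01, 88.5 and 83.9 at 48 h. The neighbours started from similar levels in water and separated by 48 h. The log2 rise from water to 48 h was 5.49 ± 0.18 for Ah06g394600 and 4.81 ± 0.15 for Ah06g394500 in HY33, and 5.04 ± 0.17 and 4.16 ± 0.15 in HY9115; the difference between the neighbours was not tested.

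In the chromosome 14 array the most abundant genes were Ah14g112600 and Ah14g108000. Ah14g112600 had FPKM values in HY33 of 7.65, 8.66 and 5.87 in water, 55.3, 68.5 and 62.1 at 3 h, 45.02, 51.5 and 52.8 at 12 h, 90.1, 102 and 81.1 at 24 h and 184, 187 and 165 at 48 h. Those in HY9115 were 7.77, 7.18 and 7.48 in water, 123.5, 93.6 and 92.6 at 3 h, 59.9, 61.8 and 86.2 at 12 h, 76.9, 86.3 and 69 at 24 h and 152, 153 and 126 at 48 h. It rose by 4.98 ± 0.17 on the log2 scale from water to 48 h in HY33 and by 4.52 ± 0.17 in HY9115. At 3 h all HY9115 libraries were higher than all HY33 libraries, and in both cultivars the 12 h libraries were all below the 3 h ones in FPKM. By adjusted p alone in edgeR's test, the decrease from 3 to 12 h was called in HY9115 and not in HY33. Ah14g108000, at the start of the array, had FPKM values in HY33 of 4.40, 4.48 and 4.15 in water, 43.3, 43.1 and 47.1 at 3 h, 24.4, 32.6 and 36.1 at 12 h, 54.6, 63.3 and 54.4 at 24 h and 139.8, 135 and 117 at 48 h. Its HY9115 values were 4.04, 4.86 and 6.02 in water, 96.9, 74.8 and 77.6 at 3 h, 41.7, 47.4 and 62.95 at 12 h, 54.96, 67.8 and 48.6 at 24 h and 128, 139.7 and 110.5 at 48 h. The dip at 12 h was clear of the 3 h libraries in both cultivars. Apart from Ah14g108700, which had no count in water, the largest log2 rise at 48 h was 6.26 ± 0.22 in HY33, for Ah14g109700 (5.23 ± 0.22 in HY9115), and 5.86 ± 0.26 in HY9115, for Ah04g096600 on chromosome 4.

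The scarce copies all lay in the array. Ah14g108700 had 0 counts in all 6 water libraries, and its counts in salt came mainly from single libraries: 2, 21 and 1 in HY33 at 48 h, 1, 3 and 22 in HY9115 at 3 h, and 26, 0 and 0 in HY9115 at 48 h. Against a floor of 3 counts over the water group, its level was at least 7.98-fold higher in HY33 at 48 h, at least 8.34-fold higher in HY9115 at 3 h and at least 8.6-fold higher in HY9115 at 48 h. These bounds cover counting error alone, and in HY9115 at 48 h 2 of the 3 libraries were at 0, as in water. Ah14g110900 also had no count in water and had 8, 23 and 39 counts in HY33 at 48 h, 61, 0 and 3 in HY9115 at 3 h, and 24, 13 and 0 in HY9115 at 48 h, which give bounds of at least 23.26-fold, 20.54-fold and 12.23-fold. The bound in HY9115 at 3 h rests on 1 library, and without it 3 counts remain, the floor itself. Ah14g111000 ranged from 0 to 1.09 FPKM over the 30 libraries, with 0 to 2 counts in each water library. Ah14g111900 had at most 2 counts in any library, so no change in it was detectable at this depth.

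The time courses were not smooth. In HY33 1 gene, Ah01g026000, rose from 3 to 12 h (log2 1.08 ± 0.12, adjusted p = 1.8e-09), where 9.82% of all tested genes rose and 9.98% fell, and none fell (7 had an unadjusted p under 0.05 in the lower direction, and DESeq2 called 0 lower). Without the third HY33 library at 12 h this gene was not called and 2 others fell. In HY9115, where 8.21% of tested genes rose and 9.84% fell, edgeR called 0 of the 26 in that step, with 6 higher and 14 lower at an unadjusted p under 0.05 and 0 by DESeq2. From 12 to 24 h, when 2.6% of tested genes rose and 3.59% fell in HY33, none of the 26 was called there by edgeR or DESeq2, with 18 higher and 0 lower at an unadjusted p under 0.05, but 3 rose without the third 12 h library. In HY9115 Ah14g110700 fell (log2 -1.16 ± 0.12, adjusted p = 3.3e-09), against 3.12% of tested genes that fell and 2.48% that rose. The common step was the last: from 24 to 48 h 26 genes rose in HY33 and 23 in HY9115, where 4.92 and 5.55% of tested genes rose and 7.91 and 12.7% fell. Of the 23 genes tested with the filter on the water libraries alone, 23 rose in HY33 and 21 in HY9115 in this step. The 26 in HY33 include Ah14g108700, which was tested only because of its salt libraries and whose call carries no weight here either. With scaling to total counts, which moved the median of all genes by -0.26 and -0.20, 17 and 15 rose.

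Between 3 and 12 h some copies went up and others down, mostly in shares near those of all tested genes. Calls by adjusted p alone, with no minimum size, numbered 7 higher and 6 lower from 3 to 12 h in HY33 and 6 higher and 12 lower in HY9115. Of all tested genes, 25.6% were higher and 26.6% lower by this rule in HY33, and 23.7 and 25.5% in HY9115. The calls in HY33 and the higher calls in HY9115 lay near these shares, and the lower calls in HY9115 lay above them. Higher in both cultivars were 6 genes, 85.7% of the HY33 list and 100% of the HY9115 list: Ah01g026000, Ah11g081400, Ah06g394600 and the array neighbours Ah14g111200, Ah14g111300 and Ah14g111500. Lower in both were 6 genes, 100% of the HY33 list and 50% of the HY9115 list: Ah04g099000, Ah14g108000, Ah14g108300, Ah14g108400, Ah14g109700 and Ah14g113600. No gene was higher in one cultivar and lower in the other, and no library is shared between these lists. The same overlaps over all tested genes were not computed. Of those lower in both, Ah14g113600 had the largest decrease in HY33 (log2 -0.95 ± 0.15, and -0.82 ± 0.15 in HY9115; adjusted p = 3.3e-06 and 1.8e-05, edgeR). In HY9115 Ah14g109700 had a larger one (-0.88 ± 0.14, and -0.57 ± 0.15 in HY33). These directions are relative to the median of all genes, which scaling to total counts moved by -0.13 in HY33 and -0.10 in HY9115.

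From 12 to 24 h the same rule gave 18 higher and 0 lower in HY33, against 16.2 and 16% of all tested genes. In HY9115 it gave 1 higher and 10 lower, against 15 and 15.2%. The gene higher in HY9115, Ah04g096600, was also higher in HY33, and 4 genes were higher in HY33 and lower in HY9115. The difference between the cultivars in this step was not tested, and the overlap over all tested genes was not computed. The shares of the locations changed between water, 3 h and 12 h. The chromosome 14 array held 29.1% ± 1.93 (SD, n = 3) of the genes' summed FPKM in HY33 in water, 38.5% ± 0.358 at 3 h and 28.7% ± 0.377 at 12 h. In HY9115 the array's share was 29.1% ± 2.13, 39.5% ± 0.551 and 30.3% ± 0.881. The genes on chromosomes 1 and 11 had the reverse course, with 35.1% ± 2.61, 28.6% ± 0.511 and 42.6% ± 1.38 in HY33 and 33.2% ± 1.46, 28.0% ± 0.687 and 40.4% ± 1.22 in HY9115. From 12 to 24 h the shares moved little: the array held 27.4% ± 0.686 at 24 h in HY33 and the genes on chromosomes 1 and 11 held 42.3% ± 1.01. At 3 h no library of either cultivar overlapped with its water libraries or its 12 h libraries in either share.

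Between the cultivars 4 copies differed at every time. At 0 h 3 genes were higher and 3 lower in HY33 than in HY9115, against 2.97 and 2.75% of all tested genes. At 3 h 1 was higher and 6 lower (2.06 and 3.78% of tested genes), at 12 h 1 and 5 (1.95 and 1.8%), at 24 h 1 and 3 (2.41 and 2.75%), and at 48 h 1 and 3 (5.97 and 3.06%). By adjusted p alone 6 genes were higher and 5 lower in HY33 at 0 h, against 13 and 11.9% of tested genes. By the same rule 22 genes were lower in HY33 at 3 h and 20 at 12 h, where 12.7 and 7.44% of tested genes were lower, and 1 gene was higher at each time, against 9.71 and 7.2% of tested genes. At 24 h 8 genes were higher and 3 lower, against 14.5 and 14.9% of tested genes. At 48 h 10 were higher and 3 lower, against 23 and 17.2%. The median log2 difference of the 26 genes was -0.08 at 0 h, -0.78 at 3 h, -0.67 at 12 h and 0.22 at 24 and 48 h.

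The copy that differed most was Ah14g113800, the last gene of the array (13350988 to 13353997 on chromosome 14). In HY33 its FPKM was 0.11, 0.07 and 0.03 in water, 0.22, 0.30 and 0.48 at 3 h, 0.31, 0.36 and 0.42 at 12 h, 0.48, 0.41 and 0.26 at 24 h and 1.17, 0.99 and 1.06 at 48 h. The HY9115 libraries were at 4.35, 4.15 and 5.06 in water, 89.2, 68.96 and 75.01 at 3 h, 54.8, 63.97 and 71.04 at 12 h, 60.6, 68.5 and 49.9 at 24 h and 117, 116 and 96.6 at 48 h. Even the HY33 libraries at 48 h lay below the HY9115 libraries in water. In HY33 only the 48 h libraries with 1.17 and 1.06 reached 1 FPKM, so this gene was tested only because of its HY9115 libraries. The same holds for the filter on the water libraries. Its tests between the cultivars are to be read with that limit. In counts, the HY33 water libraries held 3, 2 and 1 reads of this gene and the HY9115 water libraries 129, 116 and 137. The log2 difference was -5.92 ± 0.35 at 0 h (adjusted p = 2.7e-15) and -7.83 ± 0.20 at 3 h (adjusted p = 3.4e-25) in edgeR's test. It was -7.45 ± 0.20 at 12 h, -7.18 ± 0.20 at 24 h and -6.55 ± 0.17 at 48 h. The gene nonetheless rose with salt in HY33 too, by 4.23 ± 0.47 at 48 h (adjusted p = 1.2e-09), next to 4.87 ± 0.14 in HY9115. The neighbouring gene Ah14g113700 (13347467 to 13349785), annotated as a chalcone synthase without the stilbene synthase text, was also lower in HY33 at every time, from -5.36 ± 0.22 at 0 h to -6.83 ± 0.15 at 3 h. Whether these sequences are present in HY33 was not tested.

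Ah04g096500, the first gene of the chromosome 4 cluster, was lower in HY33 at all 5 times as well. Its FPKM in HY33 was 0.83, 0.72 and 0.72 in water, 4.88, 7.29 and 6.71 at 3 h, 6.97, 10.5 and 11.99 at 12 h, 14.7, 17.2 and 12.2 at 24 h and 35.2, 34.7 and 28.2 at 48 h. HY9115 libraries held 3.15, 2.74 and 3.89 in water, 50.9, 39.1 and 37.2 at 3 h, 28.1, 27.9 and 45.7 at 12 h, 33.9, 46.6 and 31.8 at 24 h and 89.4, 92.6 and 78.8 at 48 h. The cultivars did not overlap at any time. The log2 difference was -2.10 ± 0.33 in water, -2.78 ± 0.20 at 3 h and -1.28 ± 0.18 at 48 h (adjusted p = 8.3e-06, 6.5e-13 and 8.3e-07, edgeR). Its neighbour Ah04g096600 differed the other way. In HY33 its FPKM was 6.59, 6.39 and 4.44 in water, 46.95, 45.9 and 42.8 at 3 h, 33.6, 40.1 and 51.99 at 12 h, 52.4, 65.2 and 53.2 at 24 h and 141, 143 and 132 at 48 h. In HY9115 the FPKM was 1.11, 0.66 and 1.76 in water, 21, 16.1 and 14.8 at 3 h, 10.6, 9.30 and 18.2 at 12 h, 18.5, 23.6 and 16.5 at 24 h and 58.5, 57.7 and 54.5 at 48 h. Again no HY33 library overlapped with an HY9115 library of the same time. The log2 difference was 2.31 ± 0.30 in water, 1.35 ± 0.19 at 3 h and 1.41 ± 0.18 at 48 h (adjusted p = 3.3e-07, 8.2e-07 and 9.9e-08, edgeR). This gene was chosen after its values were seen, as the only one of the 26 called higher in HY33 at all 5 times.

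Ah14g108400 was the remaining gene called at every time. Its FPKM in HY33 was 0.33, 0.11 and 0.13 in water, 2.58, 2.67 and 2.95 at 3 h, 1.43, 1.07 and 2.03 at 12 h, 2.64, 2.61 and 3.29 at 24 h and 7.22, 7.83 and 6.82 at 48 h. For HY9115 the values were 0.54, 1.00 and 0.96 in water, 12.9, 12.4 and 11.9 at 3 h, 7.99, 8.33 and 9.04 at 12 h, 7.90, 6.62 and 5.68 at 24 h and 18.4, 14.8 and 16.3 at 48 h. It was a scarce copy in both cultivars, and at no time did a HY33 library reach the lowest HY9115 library. The log2 difference was -2.12 ± 0.38 in water (adjusted p = 5.8e-05) and -2.49 ± 0.18 at 12 h (adjusted p = 1e-12). At 48 h it was -1.05 ± 0.14 (adjusted p = 2.8e-07), a value that fell just under the size limit without the third HY33 library (-0.98) or without the first HY9115 library at that time (-0.97). Called at 0 h alone were Ah14g110700 and Ah14g111300, higher in HY33 by 1.02 ± 0.21 and 1.34 ± 0.20 on the log2 scale. Tested genes within 2 Mb of the stilbene synthase genes had median log2 differences between -0.09 and 0.08 on the 5 chromosomes and at the 5 times. Inside the chromosome 14 array, 9 other genes were tested, Ah14g113700 among them. Of these 9, 4 were called higher and 2 lower in HY33 at 0, 12, 24 and 48 h, and 3 higher and 3 lower at 3 h. On chromosome 4, 10 to 14 of the 113 tested neighbours within 2 Mb were lower in HY33 at each time and 0 to 5 were higher. Of all tested genes, 1.8 to 3.78% were called lower in HY33 over the 5 times and 1.95 to 5.97% higher.

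**Figure D3:**
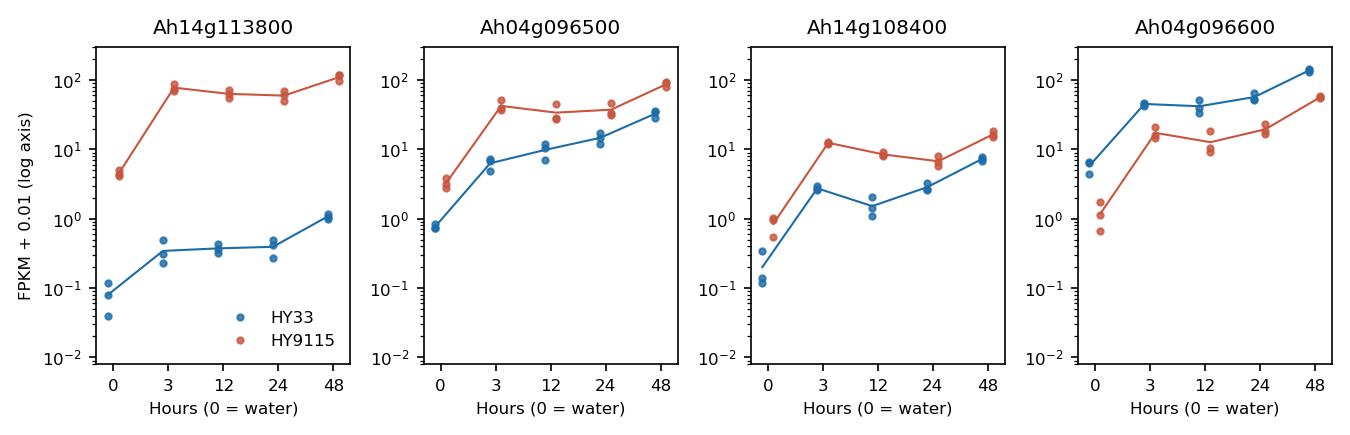
FPKM + 0.01 on a log axis against hours in 100 mM NaCl (0 is water) for the 4 genes called between the cultivars at all 5 times, with a point per library and lines through the means of 3 libraries. Ah14g113800, Ah04g096500 and Ah14g108400 lie lower in HY33 and Ah04g096600 lies higher, while all 4 rise in both cultivars.

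The change from water to salt differed between the cultivars in the first 12 h. The test of the difference between the changes, HY33 minus HY9115, called 0 genes higher and 7 lower at 3 h and 0 higher and 6 lower at 12 h, where 2.95 and 2.22% of all tested genes were lower and 1.5 and 2.29% higher. No gene had an unadjusted p under 0.05 in the higher direction at these times, and DESeq2 called 0 higher at both. At 24 h and 48 h edgeR called 0 genes, with 5 higher and 2 lower at 24 h and 9 higher and 3 lower at 48 h at an unadjusted p under 0.05, and DESeq2 called 0 at both. Without the first HY33 water library 1 gene was called at 24 h and 1 at 48 h. At 48 h 2 were called without the third HY33 or the first HY9115 water library, and 1 without the third HY9115 water library or the first HY9115 library at 48 h. Of all tested genes 1.86% were called higher and 1.88% lower at 24 h, and 5.04 and 2.95% at 48 h. Among the called genes the largest difference was that of Ah14g110700. Its FPKM in HY33 was 4.66, 4.50 and 3.10 in water, 32.98, 31.7 and 29.1 at 3 h, 22.6, 25.7 and 28.8 at 12 h, 20.5, 25.6 and 24.9 at 24 h and 48.9, 53.9 and 42.03 at 48 h. The FPKM in HY9115 was 1.45, 1.92 and 2.71 in water, 54.1, 49.2 and 49.6 at 3 h, 43.2, 43.99 and 38.5 at 12 h, 20, 20.3 and 18 at 24 h and 36.4, 40.02 and 33.6 at 48 h. It was higher in HY33 in water, higher in HY9115 at 3 and 12 h, and higher in HY33 again at 24 and 48 h, each time with no overlap. Of these differences only that in water was called, and at 24 h the nearest libraries were at 20.5 and 20.3 FPKM. The difference between the changes was -1.76 ± 0.24 at 3 h (adjusted p = 2.6e-06) and -1.73 ± 0.24 at 12 h (adjusted p = 3.6e-06).

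Next by size were Ah04g096900 and Ah14g109900. Ah04g096900 had FPKM values in HY33 of 3.58, 4.75 and 2.59 in water, 30.9, 32.3 and 30.4 at 3 h, 19.9, 22.03 and 29.4 at 12 h, 39.3, 47.7 and 44.01 at 24 h and 96.3, 101.1 and 86.95 at 48 h. Those of HY9115 were 2.05, 1.60 and 2.57 in water, 63.3, 50.9 and 51.1 at 3 h, 33.4, 32.9 and 46.5 at 12 h, 32.1, 44.03 and 28.04 at 24 h and 78.7, 90.1 and 74.5 at 48 h. The water libraries of HY33 lay above those of HY9115, and at 3 h the order was reversed. Its difference between the changes was -1.67 ± 0.31 at 3 h and -1.48 ± 0.31 at 12 h (adjusted p = 0.00021 and 0.00098, edgeR). Ah14g109900 had FPKM values in HY33 of 1.22, 1.91 and 0.92 in water, 14.8, 17.5 and 13.6 at 3 h, 9.28, 8.85 and 16.6 at 12 h, 15.5, 17.1 and 18.1 at 24 h and 56.9, 46.7 and 43.97 at 48 h. In HY9115 the levels were 0.81, 0.59 and 0.83 in water, 33.1, 23.2 and 20.96 at 3 h, 16.2, 18.8 and 16.1 at 12 h, 12, 12.8 and 9.19 at 24 h and 31.2, 38.2 and 28.3 at 48 h. Its differences of -1.64 ± 0.49 at 3 h (adjusted p = 0.022) and -1.42 ± 0.50 at 12 h (adjusted p = 0.048) came with water levels of 0.59 to 1.91 FPKM. The 3 h call was lost without the second HY33 water library (-1.28, adjusted p = 0.14) and without the second HY9115 water library (-1.49, adjusted p = 0.069). The 12 h call was lost in 9 of the 12 fits that left out 1 library, with adjusted p from 0.066 to 0.22, and with the replicate number as a block (adjusted p = 0.054, edgeR). Without the second HY33 water library 4 rather than 7 genes were called at 3 h.

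**Figure D4:**
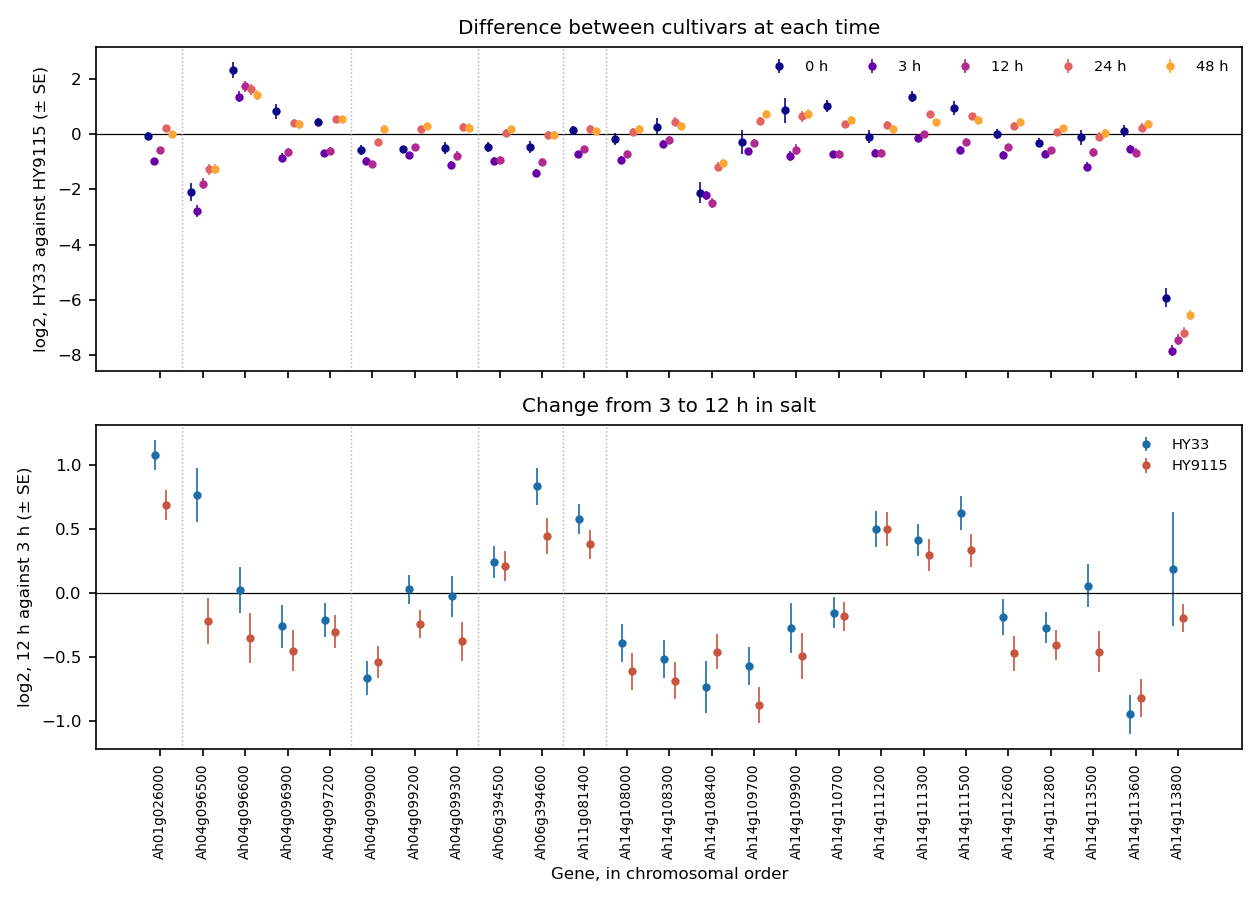
The upper panel plots the log2 difference HY33 against HY9115 (± SE) at each time for 25 tested stilbene synthase genes in chromosomal order, without Ah14g108700, which had no count in water, and dotted lines part the locations. The lower panel plots the log2 change from 3 to 12 h (± SE) in each cultivar, where Ah01g026000 is highest at 1.08 in HY33 and Ah14g113600 lowest at -0.95.

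The copies also varied together between replicates. Over the 10 group means the median Pearson correlation between pairs of the 26 tested genes was 0.949 (325 pairs, lowest -0.116), which carries the shared rise with salt. After group means were taken out of the 30 libraries, the median correlation of log values was 0.597, from -0.217 to 0.923, and 310 of 325 pairs were above 0. These are descriptions, since the points share libraries and reads can be divided among copies. The same correlations were not computed for other genes, so they need not be particular to these copies.

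Between the first and last genes of the clusters lay 33 other genes, of which 11 were tested. Of these, 4, all in the chromosome 14 array, carried K00660 and a chalcone synthase function without the stilbene synthase text: Ah14g108900, Ah14g110800, Ah14g112400 and Ah14g113700. In HY33 3 of these 4 rose at 3 h and 4 at each later time, with log2 changes of 3.42 to 5.26 at 48 h. In HY9115 4 rose at 3, 12 and 48 h and 3 at 24 h, with log2 changes of 2.57 to 4.97 at 48 h. The 7 other tested genes inside the clusters did not share this. Of these 7, 1 rose in HY33 at 3 h and 1 at 48 h, 1 fell in HY9115 at 12 h and 1 at 48 h, and their median log2 change lay between -0.29 and 0.53.

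The upstream enzymes, and the chalcone enzymes after them, are given by counts, to be read against the shares of all tested genes that rose and fell, stated above. Phenylalanine ammonia-lyase, the entry step from phenylalanine, had 16 genes, 8 of them tested, of which 3, 2, 2 and 5 rose and 0, 1, 1 and 0 fell at 3, 12, 24 and 48 h in HY33. In HY9115 5, 4, 3 and 6 rose and 0, 1, 0 and 0 fell. Its most abundant called gene, Ah16g229500, was called higher at 48 h in HY33 (log2 1.07 ± 0.08) and at 3 and 48 h in HY9115 (2.35 ± 0.09 and 1.13 ± 0.09). Cinnamate 4-hydroxylase, which hydroxylates the ring, had 5 genes, of which 1, 2, 2 and 5 rose and 1, 0, 1 and 0 fell in HY33, and 4, 2, 2 and 4 rose and 0 fell in HY9115. Its gene Ah17g157500 had log2 changes at 48 h of 1.83 ± 0.08 in HY33 and 1.58 ± 0.08 in HY9115. For 4-coumarate-CoA ligase, which makes the CoA ester used by stilbene synthase, 24 of 33 genes were tested. Of them 4, 4, 3 and 6 rose and 2, 1, 4 and 5 fell in HY33, and 5, 4, 3 and 7 rose and 0, 2, 3 and 2 fell in HY9115. The share of ligase genes that rose lay above that of all tested genes at every time in both cultivars. It was closest at 24 h, with 12.5% in each cultivar beside 10.4 and 9.2% of all tested genes. At 3 h it was 16.7% in HY33 and 20.8% in HY9115, beside 6.61 and 8.27%. The shares that fell lay on both sides of those of all tested genes. The most abundant called ligase gene, Ah04g002700, fell in HY33 at 24 h (log2 -1.14 ± 0.10) and was called in no other comparison with water. The ligase medians lay between -0.31 and 0.14 on the log2 scale over the 8 comparisons. The medians of phenylalanine ammonia-lyase at 48 h were 1.38 in HY33 and 1.5 in HY9115, and those of cinnamate 4-hydroxylase 1.83 and 1.73. Of 19 tested acetyl-CoA carboxylase genes of 54, at most 2 rose and at most 2 fell in any comparison. This list holds genes of several KEGG numbers. The most abundant called gene among them, Ah08g087100 (K11262), rose in HY33 at 12 h (log2 1.16 ± 0.11) and 48 h (1.31 ± 0.11). In HY9115 it rose at 48 h (1.12 ± 0.11). No gene in the table carried the KEGG number of resveratrol O-methyltransferase.

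Of the neighbouring branch, chalcone synthase without the stilbene synthase text had 22 genes, 19 of them tested, and 9, 15, 16 and 18 rose in HY33 and 14, 15, 16 and 17 in HY9115, and the rest were not called. The 4 array genes described above are among them. Of the 15 tested outside the array, 6, 11, 12 and 14 rose in HY33 and 10, 11, 13 and 13 in HY9115, with medians of 3.51 and 3.27 on the log2 scale at 48 h. The most abundant, Ah04g017300, rose by 3.23 ± 0.13 at 3 h and 5.74 ± 0.14 at 48 h in HY33 and by 4.09 ± 0.13 and 5.76 ± 0.14 in HY9115. The 22 genes held 0.0170% ± 0.00119 of counts in water and 0.296% ± 0.0209 at 48 h in HY33, and 0.0182% ± 0.000563 and 0.255% ± 0.00416 in HY9115 (SD, n = 3). Chalcone isomerase, the next flavonoid step, had 9 tested genes of 13, of which 0, 2, 2 and 7 rose in HY33 and 2, 2, 2 and 5 in HY9115, while 1 fell in HY33 at 12 h and 1 in HY9115 at 48 h. Its most abundant called gene, Ah19g503800, rose in HY33 at 48 h (log2 1.67 ± 0.16) and was called in no other comparison with water.

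Marker lists of tissues moved over the same samples, and their counts too are to be read against the shares of all tested genes. Of 60 green shoot markers, RuBisCO small subunits and light-harvesting proteins, 38 were tested, and 8, 31, 12 and 30 fell in HY33 and 14, 22, 5 and 30 in HY9115. Their share of counts was 2.76 to 2.80% in the HY33 water libraries and 0.396 to 0.425% at 48 h, and 2.13 to 2.40% and 0.352 to 0.387% in HY9115, with 16 to 19 markers at 0 in each group. At 48 h 78.9% of the tested green shoot markers fell in each cultivar, beside 20.1 and 21.3% of all tested genes. The list used for root held 60 genes with the KEGG number of the NRT2 nitrate transporter or the annotation text Casparian strip, among them MYB factors and laccases, and 27 were tested. Of these 3, 9, 15 and 13 fell in HY33 and 4, 11, 12 and 17 in HY9115, and 15 to 19 were at 0. Their share was 0.0237 to 0.0264% of counts in HY33 in water and 0.00862 to 0.00919% at 48 h, and 0.0275 to 0.0320% and 0.00930 to 0.00973% in HY9115. At 3 h in HY33 11.1% of the tested genes of this list fell, beside 7.45% of all tested genes. By 48 h 48.1% had fallen in HY33 and 63.0% in HY9115, beside 20.1 and 21.3%. A nitrate transporter, Ah04g136000, had the highest level of the list (mean of 61.3 FPKM over the 30 libraries), and genes of this list need not be particular to root. The libraries are labelled whole plant, and both lists had lower shares of counts at 48 h than in water.

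Seed storage markers, taken by the annotation text for nutrient reservoir activity, with 20 tested of 36, rose in 2, 11, 8 and 8 cases in HY33 and in 8, 11, 11 and 11 in HY9115. At 3, 12, 24 and 48 h 2, 0, 0 and 1 fell in HY33 and 0, 0, 0 and 2 in HY9115, with shares of 0.0679 to 0.118% over the HY33 libraries and 0.0695 to 0.128% over those of HY9115. Genes of this list need not be seed storage genes. Some carried the KEGG numbers K03098 or K02154, among them Ah11g467300 (K03098, mean of 68.9 FPKM over the 30 libraries) and Ah03g078600 (K02154, 39.6 FPKM). In HY33 at 3 h 10% of the tested genes of this list rose and 10% fell, beside 6.61 and 7.45% of all tested genes. At 12 h 55% rose in each cultivar, beside 11 and 11.4%. Defence markers, PR1 and chitinase genes with 23 tested of 38, rose in 11, 8, 9 and 12 cases in HY33 and 13, 8, 9 and 9 in HY9115, and 2, 4, 6 and 4 and 2, 5, 5 and 7 fell. Their share was 0.0279 to 0.0343% of counts in HY33 in water and 0.401 to 0.484% at 48 h, and 0.0314 to 0.0327% and 0.240 to 0.263% in HY9115. At 48 h 52.2% of the tested defence markers rose in HY33 and 39.1% in HY9115, beside 14.3 and 14.5% of all tested genes. Those that fell made up 17.4 and 30.4%, beside 20.1 and 21.3%. The part of these tissue and defence markers in the rise of the stilbene synthase genes was not tested.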

How the data were processed

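Gene counts and FPKM values of 30 libraries were used. Per the submitters' processing notes, the tools were HTSeq 0.6.1, HISAT2 2.2.1, cutadapt 1.9.1 and DESeq2. Genome build, annotation and strand setting are not given in the sources. The counts were deposited as whole numbers with no sign of normalisation. FPKM, as deposited by the authors, is the count over exonic length and library total, which held for 100% of values (tolerance 0.005). Library depth bounds the precision of scarce genes, and floors of 3 counts cover counting error only.

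The count test was that of edgeR 4.0.16 (R 4.3.3): TMM factors (0.804 to 1.11), 1 fit of 30 libraries with 10 group coefficients, glmQLFit and glmQLFTest, over the 42311 genes that reached 1 FPKM in 3 or more libraries, for 23 comparisons (salt times against 0 h, successive times, cultivars at each time, and differences between the changes). The script was tested on simulated data. Alternatives were DESeq2 1.42.0, other scalings and filters, calls by adjusted p alone, the replicate number as a block, each library left out and, added after the values were seen, a filter on the water libraries.

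The genes and the pathway and marker lists were chosen with earlier results of these data known. Named genes are the 8 with the highest mean FPKM and up to 3 per kind of comparison with the largest called difference, plus the most abundant called gene of an enzyme. Replicates differed by more than sampling noise (chi-square over its degrees of freedom, 2.05 to 8.07). Promoter and protein sequences were not used here.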

Additional observations from a re-analysis of the deposited data

Results flagged for a closer look

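The test of the difference between the cultivars' changes from water called 7 genes at 3 h, all with a smaller rise in HY33 (log2, HY33 minus HY9115). The values were -1.76 for Ah14g110700, -1.67 for Ah04g096900, -1.64 for Ah14g109900, -1.51 for Ah14g111500, -1.48 for Ah14g111300, -1.11 for Ah04g097200 and -1.06 for Ah14g113500. At 12 h it called 6 of these 7 genes, with -1.73 for Ah14g110700, -1.48 for Ah04g096900, -1.42 for Ah14g109900, -1.36 for Ah14g111300, -1.22 for Ah14g111500 and -1.02 for Ah04g097200.

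The water libraries enter both sets of values. In water, Ah14g110700 and Ah14g111300 were called higher in HY33, with log2 differences of 1.02 and 1.34. Ah04g096900, Ah14g111500 and Ah04g097200 had differences of 0.82, 0.94 and 0.42 with an adjusted p under the threshold (0.021, 0.0044 and 0.038, edgeR). At 3 h Ah14g111300 had a difference of -0.13 between the cultivars (adjusted p = 0.51), so its value of -1.48 comes with a difference in water, while Ah14g113500 had -0.12 in water (adjusted p = 0.79) and -1.18 at 3 h.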

How the results depend on the processing

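No named gene's log2 value changed sign under any alternative run, but the direction of some counts did. From 3 to 12 h in HY33, 1 higher and 0 lower became 0 higher and 2 lower without the third 12 h library, and the 48 h difference had 4 higher and 1 lower by adjusted p alone but 0 higher and 2 lower with total counts. With calls by adjusted p alone, the stilbene synthase genes called numbered 13 and 18 in the steps from 3 to 12 h and 12 to 24 h in HY33, and 18 and 11 in HY9115; 11, 23, 21, 11 and 13 between the cultivars at 0, 3, 12, 24 and 48 h; and 12, 1 and 5 for the difference between the changes at 3, 24 and 48 h. By the same rule 49, 61 and 67 of 84 tested pathway genes were called at 3, 12 and 24 h in HY33, with 31, 41 and 42 higher and 18, 20 and 25 lower. In HY9115 56, 61, 63 and 70 were called at 3, 12, 24 and 48 h, with 40, 43, 47 and 51 higher and 16, 18, 16 and 19 lower. The shares of all tested genes by this rule were not computed for salt against water or for the difference between the changes, so these counts stand without that comparison. Scaling to total counts gave 17 and 15 genes from 24 to 48 h in HY33 and HY9115 and 2 for the difference at 48 h; it moved the median of all genes by -0.38 and -0.26 at 48 h against 0 h. Without the filter on low values 2 genes were called from 3 to 12 h in HY9115 and 1 for the difference at 48 h. By summed FPKM the fold over water in HY33 at 3 h was 7.36, against 7.14 by counts. With each library left out in turn, calls ranged from 1 to 2 and 0 to 3 for the HY33 steps to 12 and 24 h (highest without the third HY33 library at 12 h), and for the difference between the changes from 4 to 9 at 3 h (4 without the second HY33 water library), 4 to 6 at 12 h, 0 to 1 at 24 h (1 without the first HY33 water library) and 0 to 2 at 48 h (the libraries are named with the result); the counts of genes called against water stayed at 25 or 26. The replicate numbers did not pair the samples: deviations of same-numbered libraries correlated at -0.24 to 0.21 over 135 pairs of groups, and 11 of 30 libraries correlated best with their own number. With the number as a replicate block, the difference of Ah14g109900 at 12 h was -1.41 with an adjusted p of 0.054, and the counts of called stilbene synthase genes stayed within 1 of those reported; no other named gene's call changed. Genes with few counts in water, such as Ah14g108400, Ah14g113800 in HY33 and the scarce array copies, are limited by depth.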
